A study of Mus musculus with 12 samples.

Results

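The interleukin-7, TSLP and interleukin-15 axis comprised 3 cytokine genes (Il7, Tslp and Il15) and the 4 receptor chain genes that bind them (Il7r, Crlf2, Il15ra and Il2rg), read in lymphatic endothelial cells (LECs) of the mouse lung. The 7 genes were chosen by name, as the identifiers of the count files that GENCODE M21 assigns to these symbols, out of 52636 identifiers in all. Each of the 7 symbols matched 1 identifier, and all 7 genes passed the filter on low counts.

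RNA was sequenced from LECs of Prox1-EGFP mice, in which regulatory sequence of the LEC transcription factor gene Prox1 drives EGFP, so control mice carried the reporter too. Mice breathed cigarette smoke (CS) in a whole-body system or room air (RA), for 8 weeks (acute) or for at least 24 weeks (chronic), and all received labelled isolectin before the lungs were taken. There were 2 acute RA, 2 acute CS, 3 chronic RA and 5 chronic CS libraries, named by exposure, sex (F or M) and number, and each acute library pooled several mice while chronic libraries were not pooled. The labels mark the acute groups with 8 weeks and call the chronic groups aged. The acute label equals the exposure time and cannot be the age when the lungs were taken. According to the paper, the mice were already some weeks old when exposure began.

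Interleukin-7 (IL-7) is a survival factor for lymphocytes that acts through a receptor of the IL-7 receptor alpha chain (Il7r) and the common gamma chain (Il2rg). Thymic stromal lymphopoietin (TSLP) uses the same Il7r chain, paired with its own chain encoded by Crlf2. Interleukin-15 (IL-15) is bound by Il15ra on the cell that makes it and is presented to neighbouring cells that carry Il2rb and Il2rg, such as NK cells and memory T cells. LECs are a known source of IL-7 in lymphoid organs and tissues, where lymphocytes and innate lymphoid cells carry the receptors.

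Library totals ranged from 18821438 to 56998590 counts, and expression is given in CPM, counts divided by each library's TMM-adjusted total. A floor of 3 counts came to between 0.0507 and 0.158 CPM, and every member was above it in every library. The lowest member count was 37, for Il7r in chronic RA M1. Prox1 was counted at 1836 to 2476 CPM in the 5 RA libraries and at 1042 and 1262 CPM in acute CS F and M. The summed CPM of 6 leukocyte markers, among them Ptprc (the pan-leukocyte antigen CD45), was 75.5 to 149 in RA, 1129 and 1709 in acute CS, and 89.7 to 297 in chronic CS, so both acute CS libraries stood apart. The epithelial gene Epcam, whose protein was used to leave cells out of the sort, was at or below 1.51 CPM in RA and reached 16.1 CPM in acute CS F. In bulk RNA, fewer cells of a type and less RNA per cell cannot be told apart, nor can RNA of LECs and of other cells in the sort.

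Levels of different genes were compared per length, in FPKM over the union of each gene's exons. In the 5 RA libraries Il2rg was the highest of the 7, at 41.8 ± 8.19 FPKM (SD, n = 5), above 93.7% of the genes tested in the median library. Crlf2 followed at 33.4 ± 5.26 FPKM, Il7 at 26.4 ± 5.19 FPKM and Il15ra at 13.7 ± 2.17 FPKM (SD, n = 5 each). Tslp and Il15 were near each other, at 4.36 ± 0.533 and 4.29 ± 0.947 FPKM (SD, n = 5 each), and Il7r was the lowest, at 0.602 ± 0.436 FPKM (SD, n = 5), above 28.7% of the genes tested. The ranges of Il2rg (29.8 to 52.4 FPKM) and Crlf2 (25.1 to 38.9) overlapped, as did those of Crlf2 and Il7 (18.8 to 30.9) and of Tslp and Il15. Il15ra (11.5 to 16.0 FPKM) lay below every Il7 value and above every Tslp and Il15 value, and Il7r (0.229 to 1.08) lay below all of them.

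**Figure D1:**
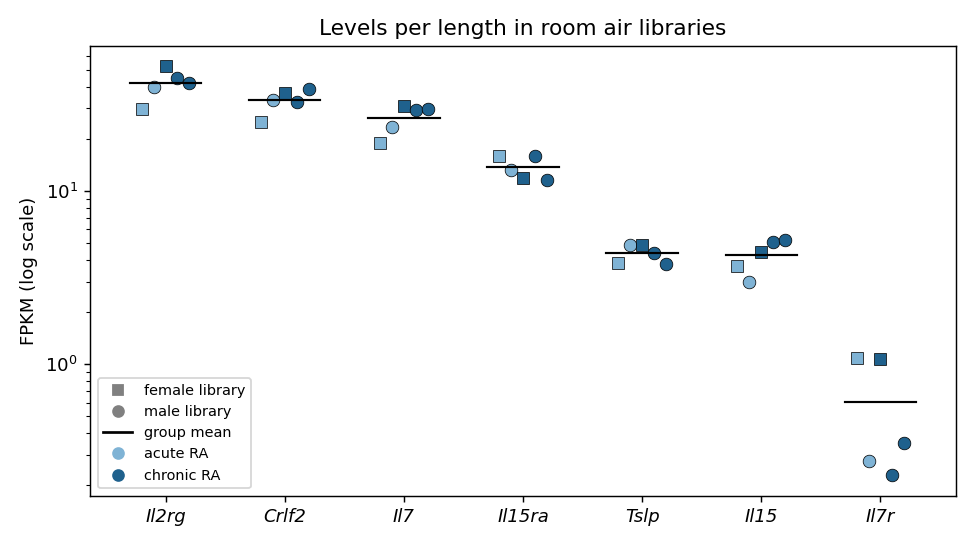
Level of each member per length (FPKM, log scale) in the 5 room air libraries, ordered by mean, with squares for female and circles for male libraries and a line for the mean. Il2rg, Crlf2 and Il7 lie between 18.8 and 52.4 FPKM, while Il7r lies at or below 1.08 FPKM.

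Of the receptor chains, Il2rg was therefore far more abundant than Il7r in the same libraries. The FPKM ratio of Il2rg to Il7r was 27.6 and 145 in acute RA F and M and 48.7 to 197 in chronic RA. In acute CS it was 11.9 and 12.3, and in chronic CS its median was 11.7, with a range from 5.71 to 49.3. Ptprc, read beside them for leukocyte RNA, was at 0.675 to 1.10 FPKM in RA, near Il7r and far under Il2rg and Crlf2. It was the lowest per length of the 6 leukocyte markers. The others lay between 3.56 and 22.9 FPKM in RA, above every Il7r value and below every Crlf2 and Il2rg value. Among the ligands, Il7 exceeded Tslp and Il15 per length in all 12 libraries, by 2.78 to 14.5 times and by 1.37 to 8.02 times.

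Il7, the lymphocyte survival factor (ENSMUSG00000040329, chromosome 3, 7569994 to 7613760, minus strand of GRCm38), was the ligand with the most counts. It was counted at 106 and 132 CPM in acute RA F and M, and at 52.4 and 113 CPM in acute CS F and M. The acute groups overlapped, and the low value came from acute CS F. The log2 fold change was -0.52 ± 0.36 (standard error), with edgeR's adjusted p = 0.563, and it was -0.07 without acute CS F and -1.18 without acute CS M. Prox1 fell over the same comparison by 1.03 on the log2 scale (edgeR's adjusted p = 0.00797). In chronic RA Il7 lay at 175, 166 and 169 CPM in F, M1 and M2, and in chronic CS at 156, 124, 148, 208 and 249 CPM in F and M1 to M4. The 3 RA values lay close together inside the range of CS, with M3 and M4 above and F, M1 and M2 below every RA library. The log2 fold change was 0.06 ± 0.26 (edgeR's adjusted p = 0.957), with -0.24 when chronic CS was limited to F, M1 and M2 and 0.43 when limited to M3 and M4. Library totals differed in the same way, at 18821438 to 22885446 counts in F, M1 and M2 and 45436986 to 47494020 in M3 and M4, and the part of depth was not tested. The antisense gene Gm16685 shares 105 exon bases with Il7 and was at 2.66 to 10.9 CPM. The sources give no strand setting. If strand was ignored, STAR's gene counting left reads that overlap both genes out of both values.

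Tslp, the epithelial-type cytokine that acts on dendritic cells and innate lymphoid cells (ENSMUSG00000024379, chromosome 18, 32815383 to 32819797, plus strand), was counted at 5.12 and 6.51 CPM in acute RA F and M and at 4.44 and 4.79 CPM in acute CS F and M. Both CS values lay below both RA values, by a margin smaller than the spread of RA. The log2 fold change was -0.33 ± 0.52 (edgeR's adjusted p = 0.870), and between -0.49 and -0.18 when single libraries were left out. After chronic exposure Tslp was at 6.52, 5.82 and 5.07 CPM in RA and at 3.47, 8.98, 9.93, 5.02 and 4.02 CPM in CS F and M1 to M4. Chronic CS M1 and M2 were above every RA library and the other 3 were below them, and the log2 difference was 0.11 ± 0.38 (edgeR's adjusted p = 0.936).

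Il15 (ENSMUSG00000031712, chromosome 8, 82331632 to 82403222, minus strand) gave the largest acute difference in relation to its error. It was counted at 8.33 and 6.77 CPM in acute RA F and M and at 15.3 and 16.6 CPM in acute CS F and M. Both CS libraries were above both RA libraries, and the ratio of the means was 2.11. The log2 fold change was 1.08 ± 0.29, with an unadjusted p of 0.00304 and an adjusted p = 0.0695 from edgeR, which did not pass the limit of 0.05. It passed in 3 of 23 alternatives, with DESeq2 (adjusted p = 0.000342), without chronic CS M1 (edgeR's adjusted p = 0.0475) and with M3 and M4 as the only chronic CS libraries (edgeR's 0.0340). In the others it did not pass. Some of these, such as male libraries only, left 1 library in an acute group, so that the other groups supplied the spread. Over the 23 alternatives the difference was between 0.90 and 1.29 on the log2 scale. In chronic RA it was at 10.1, 11.5 and 11.8 CPM, and in chronic CS at 11.7, 8.23, 12.1, 10.3 and 13.6 CPM, so the chronic groups overlapped. The chronic log2 fold change was 0.01 ± 0.21 (edgeR's adjusted p = 0.997). Chronic RA was above acute RA in every library, by 0.56 ± 0.26 on the log2 scale (edgeR's adjusted p = 0.714). The acute effect exceeded the chronic effect by 1.07 ± 0.35 on the log2 scale (edgeR's adjusted p = 0.235, DESeq2's 0.0196).

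Il15ra, the chain that presents IL-15 (ENSMUSG00000023206, chromosome 2, 11705290 to 11734317, plus strand), did not move with its ligand. It was counted at 71.2 and 58.3 CPM in acute RA F and M and at 40.8 and 48.1 CPM in acute CS F and M. Both CS values lay below both RA values, and the difference was -0.54 ± 0.34 on the log2 scale (edgeR's adjusted p = 0.513). The FPKM ratio of Il15ra to Il15 was 4.34 and 4.38 in acute RA and 1.36 and 1.47 in acute CS. It was 2.21 to 3.13 in chronic RA and 1.26 to 3.36 in chronic CS, where the groups overlapped. Il15ra itself lay at 52.6, 70.9 and 51.3 CPM in chronic RA and at 76.9, 47.8, 29.97, 48.7 and 57.8 CPM in chronic CS, with both the highest and the lowest chronic value in CS (log2 fold change -0.16 ± 0.25, edgeR's adjusted p = 0.846).

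Il7r, the chain shared by the IL-7 and TSLP receptors (ENSMUSG00000003882, chromosome 15, 9505788 to 9530176, minus strand), varied most across libraries, by 24.3 times from the lowest to the highest. It was counted at 5.03 and 1.29 CPM in acute RA F and M and at 20.4 and 18.4 CPM in acute CS F and M. Both CS libraries were above both RA libraries, and the ratio of the means was 6.13. The log2 fold change was 2.61 ± 0.98 (edgeR's adjusted p = 0.212, DESeq2's 0.0446), and it was 3.91 without acute RA F and 1.91 without acute RA M. In chronic RA it was at 5.01, 1.07 and 1.64 CPM in F, M1 and M2, and in chronic CS at 3.52, 19.2, 25.9, 8.23 and 9.40 CPM in F and M1 to M4. The 4 male CS libraries were above every RA library, while chronic CS F was below chronic RA F. The log2 fold change was 2.36 ± 0.75 (edgeR's adjusted p = 0.333, DESeq2's 0.0208), and the exact two-sided permutation test of log2 CPM over the 8 chronic libraries gave p = 0.0714. Leaving out single libraries moved the chronic value between 1.97 (without chronic CS M2) and 3.29 (without chronic RA F). With male libraries only, an alternative chosen after the values were seen, the chronic log2 fold change was 3.53 ± 0.65 (edgeR's adjusted p = 0.390), and the exact test of 4 against 2 libraries gave 0.133, the smallest p it allows. Both RA F libraries were at 5.0 CPM and the 3 RA male libraries at 1.64 CPM or less. A difference between the sexes was not tested. With sex as a covariate the Il7r difference between CS and RA was 2.80 ± 1.01 (acute) and 2.72 ± 0.85 (chronic) on the log2 scale, with adjusted p-values from edgeR of 0.213 and 0.380.

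Il2rg, the common gamma chain (ENSMUSG00000031304, chromosome X, 101264378 to 101268255, minus strand), was higher than RA after acute CS and lower after chronic CS. It was counted at 71.2 and 95.5 CPM in acute RA F and M and at 128 and 112 CPM in acute CS F and M. Both CS libraries were above both RA libraries (log2 fold change 0.53 ± 0.28, edgeR's adjusted p = 0.407). In chronic RA it was at 125, 108 and 99.99 CPM in F, M1 and M2, and in chronic CS at 88.8, 98.5, 75.6, 49.2 and 67.6 CPM in F and M1 to M4. All 5 CS libraries lay below all 3 RA libraries, with the lowest RA value 99.99 CPM and the highest CS value 98.5 CPM. The log2 fold change was -0.55 ± 0.20 (edgeR's adjusted p = 0.385), and the exact two-sided permutation test gave p = 0.0357 before any adjustment over the 7 members, the smallest that 5 against 3 libraries allow. The acute minus the chronic effect was 1.08 ± 0.34 on the log2 scale, with an unadjusted p of 0.00915 and an adjusted p = 0.217 from edgeR. Another gene model, Gm20489, shares 728 exon bases with Il2rg on the same strand and was listed at 0 in all 12 libraries. STAR's gene counting leaves out reads that overlap more than 1 gene, so this 0 sets no limit on Gm20489, and reads of Il2rg in those bases can be missing from its values.

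Crlf2, the TSLP-specific chain (ENSMUSG00000033467, chromosome 5, 109554709 to 109558993, minus strand), was lower after chronic CS in most libraries. It was counted at 37.5 and 50.06 CPM in acute RA F and M and at 45.1 and 49.98 CPM in acute CS F and M. The acute CS values lay inside the RA range (log2 fold change 0.12 ± 0.30, edgeR's adjusted p = 0.934). In chronic RA it was at 54.8, 48.8 and 58.2 CPM, and in chronic CS at 37.8, 50.8, 29.5, 24.7 and 27.6 CPM in F and M1 to M4. All CS libraries but M1 lay below every RA library and M1 lay inside the RA range. The log2 fold change was -0.66 ± 0.22 (edgeR's adjusted p = 0.349) and the exact two-sided permutation test gave p = 0.0714. It was -1.05 with M3 and M4 as the only chronic CS libraries and -0.44 with F, M1 and M2.

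**Figure D2:**
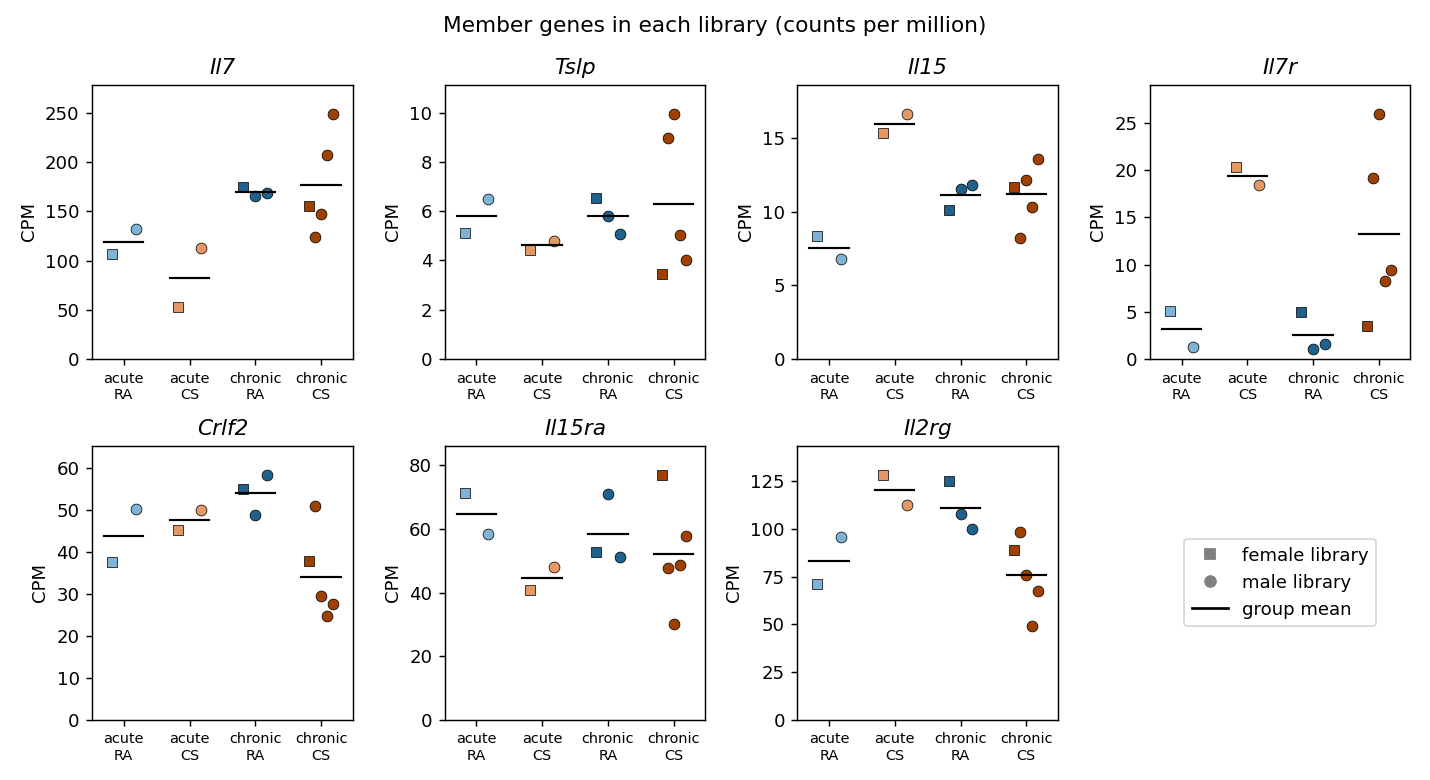
CPM of each member in the 12 libraries by group, with squares for female and circles for male libraries and a line for the group mean; each axis starts at 0. Il15 and Il7r lie higher in both acute CS than in both acute RA libraries, and Il2rg lies lower in all 5 chronic CS (49.2 to 98.5 CPM) than in all 3 chronic RA libraries (99.99 to 125 CPM).

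The 250 bases before the start of Il7r, Crlf2 and Il2rg are shown, because these 3 receptor genes had the smallest unadjusted p of the members after chronic CS (0.00936, 0.0111 and 0.0190 from edgeR). They come from a set of RefSeq promoters on GRCm38.p6, in which 4 of the 7 members were found, and read 5′ to 3′ on the minus strand, the strand of all 3 genes. Capitals mark matches to the GAS-type motif TTCNNNGAA, to which STAT factors bind, or to the NF-kB-type motif GGGANNNNCC.
Il7r, chr15:9529877-9530126: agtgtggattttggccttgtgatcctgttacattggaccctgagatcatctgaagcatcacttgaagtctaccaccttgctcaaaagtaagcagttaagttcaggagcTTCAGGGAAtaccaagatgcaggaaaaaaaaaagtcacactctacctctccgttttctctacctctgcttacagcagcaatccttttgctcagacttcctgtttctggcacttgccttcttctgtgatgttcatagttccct
Crlf2, chr5:109558994-109559243: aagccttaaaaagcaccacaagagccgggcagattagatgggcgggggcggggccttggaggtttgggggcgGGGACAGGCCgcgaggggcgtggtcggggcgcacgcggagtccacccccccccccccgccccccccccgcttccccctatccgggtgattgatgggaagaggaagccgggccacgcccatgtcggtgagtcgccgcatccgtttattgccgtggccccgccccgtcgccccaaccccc
Il2rg, chrX:101268256-101268505: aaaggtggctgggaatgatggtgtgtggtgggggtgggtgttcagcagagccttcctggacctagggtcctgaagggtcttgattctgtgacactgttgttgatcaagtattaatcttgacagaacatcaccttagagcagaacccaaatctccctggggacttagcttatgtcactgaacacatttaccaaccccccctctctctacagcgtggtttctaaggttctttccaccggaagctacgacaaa
Both strands were searched, also for the ISRE-type motif GAAANNGAAA of interferon-regulated genes. The Il7r window held 1 GAS-type match, beginning 142 bases before the start, and the Crlf2 window 1 NF-kB-type match, beginning 178 bases before it. Of 32851 RefSeq promoter windows of this length, 7.02% held the GAS-type, 17.6% the NF-kB-type and 2.98% the ISRE-type letters. The Il2rg window held none of these letters, nor did either Il15ra window. The share of G and C was 71.6% in the Crlf2 window, 49.2% in that of Il2rg and 44.0% in that of Il7r. The start of Il7r in RefSeq lies inside the GENCODE gene, which extends further upstream.

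Read over the whole axis, 0 of the 7 members passed an adjusted p of 0.05 from edgeR in the acute comparison, where 3.47% of the 21440 genes tested did. Those 745 calls moved with single libraries, with 3 genes called without acute RA M, 79 without acute RA F, 175 without acute CS F and 858 without acute CS M, and no member among them. In the chronic comparison 0 of 7 members passed, with 0% of all genes (2341 genes had an unadjusted p under 0.05), and DESeq2 called 573 of the 32088 genes with any count (1.79%), Il7r among them. In the acute comparison 3369 genes had an unadjusted p under 0.05 with edgeR, and DESeq2 called 1995 of 32088 (6.22%), among them Il7r and Il15. The fits without chronic CS M1, or with M3 and M4 as the only chronic CS libraries, called Il15 beside 3.85% and 7.06% of all genes. The acute groups did not overlap for 5 of 7 members, with Il7r, Il2rg and Il15 above and Tslp and Il15ra below RA, beside 50.1% of all genes. Without acute CS F or without acute CS M, the acute log2 fold changes were 1.14 and 1.02 for Il15, 2.54 and 2.69 for Il7r, and 0.43 and 0.62 for Il2rg. Without acute RA F or without acute RA M they were 1.24 and 0.90 for Il15, 3.91 and 1.91 for Il7r, and 0.33 and 0.72 for Il2rg. The chronic groups did not overlap for 1 of 7 members, Il2rg, beside 9.41% of all genes. Over all genes tested the median of the log2 differences was 0.04 for the acute and 0.01 for the chronic comparison.

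**Figure D3:**
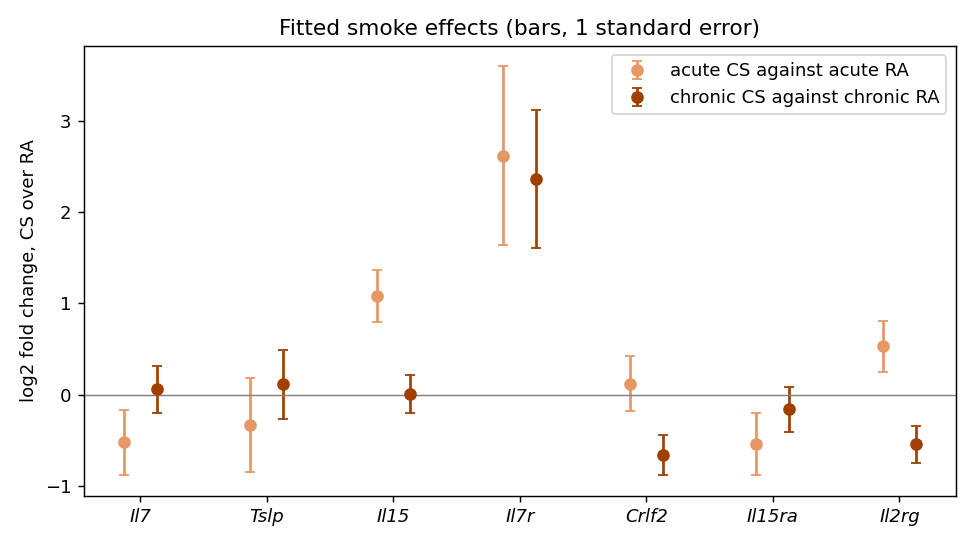
Fitted log2 fold change of each member for CS over RA (vertical axis) after acute and chronic exposure, with bars of 1 standard error from edgeR. Il7r lies at 2.61 and 2.36, Il15 at 1.08 after acute and 0.01 after chronic CS, and Il2rg at 0.53 and -0.55.

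Between the room air controls, which differ in age and in pooling, 0 of 7 members and 0% of all genes passed (1504 genes had an unadjusted p under 0.05 with edgeR, and DESeq2 called 273 genes, 0.851% of those with any count, none of them a member). Il7, Il2rg and Il15 were higher in every chronic RA than in every acute RA library, 3 of 7 members beside 34.7% of all genes without overlap. The log2 fold changes were 0.51 ± 0.33 for Il7 (0.37 to 0.66 when single libraries were left out) and 0.41 ± 0.25 for Il2rg (0.21 to 0.62). For the difference between the acute and the chronic effect, 0 of 7 members passed with edgeR, beside 0.452% of all genes, and DESeq2 called 1 (Il15), beside 3.05% of the genes with any count.

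The other receptor chains of the common gamma chain family were read from a list of 5 genes. After acute CS all 5 were higher, 2 passed the test and the median was 3.62 on the log2 scale, while 2 were higher and 3 lower after chronic CS and none passed. Il2rb, the signalling chain for IL-2 and IL-15, rose from 3.40 and 2.16 CPM in acute RA to 16.9 and 51.6 CPM in acute CS F and M (log2 fold change 3.62, edgeR's adjusted p = 0.0184). Il4ra, the IL-4 receptor chain, rose from between 172 and 180.4 CPM to between 256 and 450 CPM (log2 difference 1.002, adjusted p from edgeR 0.0371), and its chronic values ranged from 166 to 218 CPM. The 4 other ligands of the family summed to between 0.893 and 3.31 CPM in the 12 libraries, with Il9 at 0 in all, and the 2 that could be tested, Il2 and Il4, did not pass.

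Of 9 JAK and STAT genes, which carry the signal of these receptors, none passed in either comparison, and their median difference on the log2 scale was 0.15 (acute, 0.07 to 0.38 when single libraries were left out) and -0.12 (chronic, -0.17 to -0.07). Jak1, the kinase bound by Il7r and Il2rb, was at 469 to 687 CPM in all libraries. Jak3, the kinase bound by Il2rg, was at 184 to 236 CPM in chronic RA and 119 to 182 CPM in chronic CS (log2 fold change -0.62 ± 0.16, edgeR's adjusted p = 0.261). Every chronic CS value of Jak3 lay below every chronic RA value, which held for 9.41% of all genes in either direction. Stat6, a factor of IL-4 signalling, differed by 0.53 on the log2 scale after acute CS (edgeR's adjusted p = 0.0753). Of 11 genes known as STAT5 targets or feedback inhibitors, 1 passed after acute CS, the kinase gene Pim1, from 4.58 to 6.78 CPM in RA to 15.9 to 25.8 CPM in CS (log2 fold change 1.88, edgeR's adjusted p = 0.0255). The list was mixed. Cish, Socs1, Socs2, Pim1 and Pim2 were higher in both acute CS than in both acute RA libraries. Myc (85.9 and 87.7 CPM in RA, 39.9 and 47.7 in CS), Bcl2, Bcl2l1 and Ccnd2 were lower in both. Socs3 and Mcl1 overlapped. Groups without overlap occurred in 50.1% of all genes. None passed after chronic CS.

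Markers of other cells that carry these receptors were higher after acute CS, as were the values of Il7r, Il2rg and Il15 but not those of Il7, Tslp and Il15ra. Of 10 T cell markers 10 were higher after acute CS and 8 passed, the median difference was 3.77 on the log2 scale, and the summed levels were 28.7 and 32.3 CPM in acute RA against 190 and 463 CPM in acute CS F and M. The 8 NK cell markers summed to 24.4 and 24.5 CPM in acute RA and to 99.6 and 75.1 CPM in acute CS, with 7 of 8 higher and none past the limit (Gzma, edgeR's adjusted p = 0.0517). Of 8 markers of group 2 innate lymphoid cells, whose receptors include Il7r and Crlf2, 6 could be tested and all 6 were higher, with 1 call (Gata3, edgeR's adjusted p = 0.00805). Their sum was 20.8 and 22.6 CPM in acute RA, with Il1rl1 and Il5 at 0 in both libraries, and 89.3 and 212 CPM in acute CS. Of 6 leukocyte markers 6 passed. The T cell gene Cd3e was at 2.04 CPM in both acute RA libraries and at 13.5 and 47.2 CPM in acute CS F and M. Ptprc was 11.1 times and Cd3e 14.8 times as high in acute CS as in acute RA by the ratio of means. The same ratio was 6.13 for Il7r, 2.11 for Il15, 1.44 for Il2rg, 1.09 for Crlf2, 0.794 for Tslp, 0.696 for Il7 and 0.687 for Il15ra. B cell markers were higher in 5 of 5 (none past the limit, Cd79a with edgeR's adjusted p = 0.0556), dendritic cell markers in 6 of 7 (1 call up, Itgax, and 1 down, Zbtb46) and macrophage markers in 6 of 7 (2 up and 1 down, Mrc1). Zbtb46 (259 and 266 CPM) and Mrc1 (632 and 663 CPM) made up most of the sums of their lists in acute RA (268 to 284 and 691 to 787 CPM). Which cells held them was not tested. Among 8 blood endothelial markers 6 rose, among 6 of fibroblasts and mural cells 4 rose, and among 7 of epithelium and 6 of granulocytes and mast cells none passed (1 and 2 by DESeq2). In these last lists acute CS F, which held the low Il7 value, stood apart from acute CS M, with epithelial sums of 4975 and 156 CPM beside 565 and 814 CPM in acute RA, and granulocyte and mast cell sums of 860 and 14.5 CPM beside 24.8 and 5.30 CPM. The epithelial median was -2.21 without acute CS F and 2.81 without acute CS M, and that of granulocytes and mast cells ranged from 0.75 without acute CS F to 7.23 without acute RA F. Of 7 lymphatic markers 6 had lower values and 3 fell (Nrp2, Prox1 and Flt4), with a median of -1.03, while Lyve1 had the higher values in acute CS (568 and 986 CPM in F and M against 443 and 536 CPM in acute RA). The part of these cells in the acute values of the members was not tested.

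After chronic CS edgeR called 0% of all genes, so no marker list could hold a call from it. The medians were 0.89 for T cells, 0.93 for leukocytes, 1.03 for macrophages (1.62 without chronic RA F), 2.71 for granulocytes and mast cells and -0.80 for B cells (-1.22 without chronic CS M2). For NK cells (0.01) and group 2 innate lymphoid cells (0.29) the median changed sign with single libraries left out, with ranges of -0.39 to 0.24 and -0.06 to 0.52. The dendritic cell median was 2.03, and 0.05 without chronic CS M3, while the summed dendritic markers were lower in CS (175 to 233 CPM) than in RA (254 to 273 CPM). Most of this sum was Zbtb46 (159 to 199 CPM in chronic CS and 237 to 254 in chronic RA), and the other 6 markers summed to 16.3 to 46.7 CPM in chronic CS and 14.4 to 18.9 in chronic RA. The medians for other cells were 2.32 for epithelium (3.64 without chronic RA M2), 1.28 for fibroblasts and mural cells, 0.88 for blood endothelium and -0.23 for lymphatic endothelium (-0.14 without chronic RA M1 or M2). Summed leukocyte markers were 89.7, 171, 276, 297 and 158 CPM in chronic CS F and M1 to M4 and 149, 77.3 and 75.5 CPM in chronic RA F, M1 and M2. In chronic CS F, where Il7r was lowest, this sum was lowest as well, and in RA it was higher in both F libraries (109 and 149 CPM) than in the 3 male libraries (75.5 to 94.7 CPM), as was Il7r. Chronic CS M3 had the highest sum with 8.23 CPM of Il7r, while M1 had 171 CPM with 19.2 CPM of Il7r. Granulocyte and mast cell markers summed to 17.6, 90.3, 97.7, 76.6 and 44.9 CPM in chronic CS F and M1 to M4 and to 4.95 to 11.9 CPM in chronic RA. Fibroblast and mural cell markers summed to 119, 242, 198, 169 and 146 CPM in the same CS libraries and to 91.4 to 118 CPM in chronic RA. Both sums, like Il7r, were lowest in F and highest in M1 and M2 among the chronic CS libraries. So was that of group 2 innate lymphoid markers (25.7 CPM in F, 53.1 in M1 and 43.7 in M2). Sums of T cell (62.7 CPM), macrophage (995 CPM) and epithelial markers (3626 CPM) were highest in M3. Those of the other marker lists did not share the order either. The lowest Il2rg and Crlf2 values, in chronic CS M3, stood beside the highest leukocyte sum of the chronic libraries. The part of these cells in the chronic Il7r values was not tested.

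**Figure D4:**
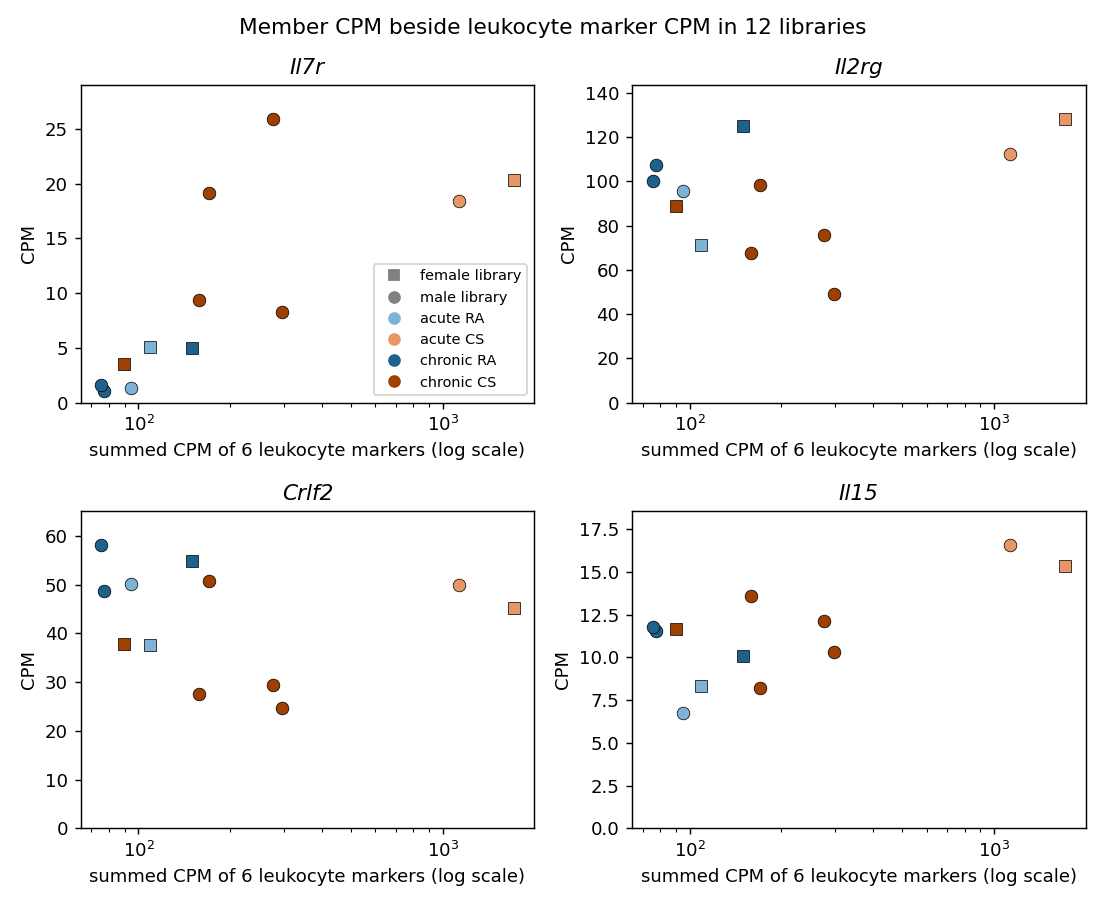
CPM of Il7r, Il2rg, Crlf2 and Il15 (vertical axes, from 0) beside the summed CPM of 6 leukocyte markers (horizontal axes, log scale) in the 12 libraries, colored by group, with squares for female and circles for male libraries. The acute CS libraries lie at the right (1129 and 1709 CPM), and chronic CS M1 and M2 hold 19.2 and 25.9 CPM of Il7r, beside 18.4 and 20.4 CPM in acute CS, at leukocyte sums of 171 and 276 CPM.

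Among the members, Il2rg and Crlf2 varied together, with a Pearson correlation of log2 CPM of 0.87 over the 12 libraries. The next largest in size were Il7r with Il15ra (-0.69) and Tslp with Il15ra (-0.56), and these values share group means and libraries. Of 12419 genes compared, those most like Il2rg were Ogfr (0.90), Ifngr2 (0.88) and Plvap (0.87), and those most like Crlf2 were P2rx2 (0.95), Plvap (0.93) and Mvb12a (0.90). Plvap, an endothelial diaphragm gene, was thus on both lists, and lay at 1704 to 3053 CPM. For Il7r they were Ocln, a tight junction gene (0.95), Wfdc17 (0.95) and P4ha2 (0.94). For Il7 they were Pard6g (0.96), Nr1h3 (0.95) and Trib3 (0.94), for Il15 Pik3ip1 (0.90), Rnf125 (0.90) and Atp6v1c1 (0.89), for Tslp Larp1 (0.93), Spata1 (0.91) and Msl1 (0.91), and for Il15ra Ik (0.92), Hsf3 (0.92) and Wdr12 (0.92). These are the highest of many correlations over 12 libraries that fall into 4 groups, and are given as a description.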

How the data were processed

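The deposited values are raw read counts per Ensembl gene, 1 file per library, which the authors made from SMART-Seq v4 libraries of sorted cells (CD31+ GFP+, lineage- and EpCAM-negative) by trimming, quality control with FastQC 0.11.9 and alignment to GRCm38 with STAR. Neither the strand setting nor the annotation release is given in the sources used here. Of the identifiers, 147 were not found in GENCODE M21 and took no more than 0.011% of the counts of any library. Gene names, positions and exon lengths came from GENCODE M21. The symbol Ccl21a matched more than 1 identifier and was left out of the lymphatic list.

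Tests were run with edgeR 4.0.16 under R 4.3.3 (filter by expression, TMM factors, quasi-likelihood F-test, all 12 libraries in 1 fit by group), and DESeq2 1.42.0 as an alternative. Adjusted p-values follow Benjamini and Hochberg over all genes tested, with a limit of 0.05. Errors after ± are SD for levels and standard errors for log2 fold changes. Log2 CPM of single libraries used a prior count of 2. Floors cover counting error only. Simulated counts were used to test the scripts. The p-values measure the spread between libraries, and acute libraries are pools. Exact permutation tests cannot go below 0.333 for the acute comparison, and were used for the chronic comparison alone. Likeness was the Pearson correlation of log2 CPM with genes of a mean log2 CPM of at least 1. The genes named are the 7 members, of each list at most 3 genes past the limit in the acute or chronic comparison or the 2 with the smallest p, the 3 genes most like each member, and Ptprc, Cd3e, Epcam and Prox1. Jak1, Il9, Il1rl1, Il5 and Lyve1, the STAT5 genes beside Pim1 and the 2 overlapping gene models are named outside this rule. The members, lists and tests were chosen with earlier results of these data known. Pairs of CS and RA libraries with the same sex and number had correlations of -0.042 to 0.069, so the numbers were not taken to pair them. Alternatives were DESeq2, other scaling factors, no filter, sex as a covariate, a fit of only the compared groups, a replicate block, robust estimation, leaving out each library, parts of the chronic CS libraries and male libraries only.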

Additional observations from a re-analysis of the deposited data

Results flagged for a closer look

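Il2rg was higher in every acute CS library than in every acute RA library, and lower in every chronic CS library than in every chronic RA library. Groups without overlap occurred in 50.1% of all genes in the acute and 9.41% in the chronic comparison, and neither difference passed (adjusted p = 0.407 and 0.385 from edgeR). The acute minus the chronic effect was 1.08 on the log2 scale (standard error 0.34, adjusted p = 0.217 from edgeR), which did not pass, and it was between 0.75 and 1.45 under the 23 alternatives, with adjusted p between 0.0718 and 0.9999. In the 5 chronic CS libraries no member had a single value that stood apart from the others by Dixon's test. Groups of 2 and 3 libraries were not tested for such values.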

How the results depend on the processing

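The count of members past the limit was 0 in each of the 4 comparisons. With DESeq2 it was 2 for the acute comparison (Il7r and Il15), 1 for the chronic comparison (Il7r) and 1 for the acute minus the chronic effect (Il15), beside 6.22%, 1.79% and 3.05% of the 32088 genes with any count. For the acute comparison it was also 1 (Il15, adjusted p = 0.0340) with chronic CS M3 and M4 as the only chronic CS libraries, where 7.06% of all genes were called against 3.47% with all libraries, and 0 to 1 when each library was left out, with Il15 called without chronic CS M1 (0.0475, beside 3.85% of all genes). The cause was not tested. The replicate block called 0 members, moved the acute count over all genes from 745 to 73, and could not be fitted for the room air comparison. Over all genes, the 745 acute calls were 3 to 973 when each library was left out (3 without acute RA M, 79 without acute RA F, 175 without acute CS F), and 139 with only the groups compared.

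Of 637 log2 fold changes of members under the alternatives, 28 had the opposite sign, and none of these passed. Leaving out single libraries gave a range across 0 for Crlf2 after acute CS (-0.0730 to 0.308), and after chronic CS for Il7 (-0.0961 to 0.179), Tslp (-0.111 to 0.267), Il15 (-0.0725 to 0.116) and Il15ra (-0.338 to 0.0166). Between the room air controls it did so for Il7r (-1.24 to 0.996) and Tslp (-0.166 to 0.163), and for the acute minus the chronic effect for Il7r (-0.708 to 1.55). The chronic value of Il7 was -0.00064 with sex as a covariate, -0.259 with the replicate block and -0.237 with chronic CS F, M1 and M2 only. That of Il15 was -0.0777 with the block, -0.0452 with F, M1 and M2 only and -0.0763 with male libraries only, and that of Tslp was -0.360 with M3 and M4 only. With male libraries only, Il7r was 0.0723 and Il15ra 0.0678 between the room air controls, and Il15ra was 0.133 for the acute minus the chronic effect, where Il7r was -0.103 with F, M1 and M2 only and Tslp 0.0261 with M3 and M4 only.

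Acute groups of 2 libraries and 1 female library per group limit every comparison. Leaving out single libraries moved the median of the gamma chain receptor list after acute CS between 2.60 and 4.22, and that of the T cell markers between 2.84 and 4.29. The fit of male libraries only was chosen after seeing the data. Il7r in RA rests on 37 to 298 counts per library.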
